A study of Homo sapiens with 4 samples.

Results

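The EGR, IER and early feedback genes are short genes that cells switch on within minutes of a stimulus. They were chosen by name from the table of the TT-seq comparison, and 7 of the 10 listed genes are among its 10147 rows: *EGR1*, *IER2*, *IER3*, *IER5*, *DUSP1*, *ZFP36* and *BTG2*. *EGR2*, *EGR3* and *DUSP2* have no row and were not analysed here. All samples were K562 cells, a human chronic myelogenous leukemia line, whose *IWS1* gene carries an N-terminal dTAG, so that the control cells carry the tag as well. The control group (2 samples, biological replicates per the methods) received the solvent DMSO, and the dIWS1 group (2 samples) received 500 nM dTAG7, the ligand that sends the tagged IWS1 protein for degradation. Both groups were treated for 1 h and then labelled with 500 µM 4-thiouridine (4sU) for 5 min. TT-seq isolates the RNA that took up 4sU and so measures RNA synthesis. How many edited clones gave rise to the line is not given in the sources used here.

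Immediate early genes are transcribed from promoters that signalling pathways switch on through transcription factors already present in the cell, foremost serum response factor (SRF) with its cofactors and CREB. Many of them restrain the signal that induced them. *EGR1* encodes a zinc finger transcription factor, *DUSP1* a phosphatase of the MAP kinases, *ZFP36* (tristetraprolin) a protein that binds AU-rich mRNAs and directs them to decay, and *BTG2* an antiproliferative protein that binds the CCR4-NOT deadenylase. *IER2*, *IER3* and *IER5* are immediate early response genes named for their rapid induction; the *IER3* product influences cell survival and that of *IER5* promotes the activity of the heat shock factor HSF1. Their brief and strong transcription has made them common test genes for pausing and elongation of RNA polymerase II (Pol II).

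In the GRCh38 annotation the 7 genes are compact. *EGR1* lies on chromosome 5 from 138465479 to 138469303 (plus strand, 3825 bp, 2 exons) and *DUSP1* on the same chromosome from 172768096 to 172771195 (minus strand, 3100 bp, 4 exons). *IER5*, on chromosome 1 from 181088700 to 181092900 (plus strand, 4201 bp), has a single exon and no intron. *BTG2* is on the same chromosome from 203305519 to 203309602 (plus strand, 4084 bp, 2 exons). *IER2* (13150411 to 13154911, 4501 bp) and *ZFP36* (39406847 to 39409407, 2561 bp) are on the plus strand of chromosome 19, each with 2 exons. *IER3* is the shortest, on chromosome 6 from 30743199 to 30744547 (minus strand, 1349 bp, 2 exons). Introns take up between 0% (*IER5*) and 53.1% (*IER2*) of the span, and reads were counted per gene on its own strand.

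Promoter windows of RefSeq (GRCh38.p14, 250 bases before to 50 after the gene start) were matched for 6 of the 7 genes, all but *IER3*. Stretches upstream of the start are shown for the gene with the lowest fold change of the group (*EGR1*) and for the pair with the highest (*DUSP1* and *BTG2*). Capitals mark CArG boxes, the sites SRF is known to bind, in *EGR1*, a cAMP response element (TGACGTCA) and a TATA box (TATAAA) in *DUSP1*, and matches to the binding motif of EGR proteins (GCGNGGGCG) in *BTG2*.
EGR1, chr5:138465369-138465478, plus strand: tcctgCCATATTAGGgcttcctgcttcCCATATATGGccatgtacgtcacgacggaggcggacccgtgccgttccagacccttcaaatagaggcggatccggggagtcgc
DUSP1, chr5:172771196-172771325, minus strand: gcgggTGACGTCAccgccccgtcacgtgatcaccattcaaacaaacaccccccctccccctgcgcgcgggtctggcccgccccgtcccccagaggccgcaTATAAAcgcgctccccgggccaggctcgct
BTG2, chr1:203305339-203305518, plus strand: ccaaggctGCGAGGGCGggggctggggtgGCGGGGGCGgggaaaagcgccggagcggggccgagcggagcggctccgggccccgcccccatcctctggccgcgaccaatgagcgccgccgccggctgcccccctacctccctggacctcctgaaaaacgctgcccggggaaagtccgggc

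The 4 motifs were searched on both strands and none contains another. The CArG boxes of *EGR1* start 105 and 83 bases upstream of the gene start, and the cAMP response element and TATA box of *DUSP1* 125 and 30 bases upstream. The EGR matches of *BTG2* start 172 and 151 bases upstream, and *EGR1* has one as well, 198 bases upstream and outside the stretch shown. No other match lay in the 6 windows. Among the 10623 windows of tested genes, 1.06% hold a CArG box, 3.1% the cAMP response element, 15% the EGR motif and 5.55% the TATA box. A match describes the letters of a window and does not show a bound site. The 6 windows are rich in G and C, from 67.3% (*IER5*) to 74.7% (*ZFP36*), against a median of 65% over the windows of tested genes.

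The table does not hold single libraries. Its mean normalised counts are sums of whole reads divided by spike-in size factors, and for 10135 of the 10136 genes with a mean above 0 exactly 1 set of whole reads per column gave the mean. These reads form 3 columns, 1 control column that enters the mean 2 times and 2 dIWS1 columns without a replicate number, here called column 1 and column 2. The control was therefore counted as 1 sample, so that only the dIWS1 columns inform on variation among replicates. The columns held 29697189 (control), 20599922 (column 1) and 20807156 (column 2) reads in genes. Of 12 fixed K562 markers 11 have a row, among them *GATA1*, *TAL1* and *KLF1*, whereas 9 of 10 markers of other lineages have none and the remaining one, *LYZ*, had 60 control reads. *IWS1* had 3684, 2334 and 2427 reads in this order of columns, but dTAG7 removes the protein, so its transcript does not measure the depletion.

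RNA synthesis differed widely between the 7 genes, which levels per kb of gene span make visible. In the control column *BTG2* was at 262 normalised reads per kb (95% Poisson interval 247 to 279), at or above 97.4% of the genes with a length. *IER3* followed at 186 (164 to 210) and *EGR1* at 176 (163 to 190), and the levels of these neighbours did not differ beyond counting error. *IER2* had 126 normalised reads per kb and *IER5* 88.2. The lowest levels were those of *DUSP1* (39.6, interval 33 to 47.2) and *ZFP36* (27.5, interval 21.4 to 34.6), whose intervals overlap and which lie below the median gene at 40.7. The order of the 7 genes was the same in both dIWS1 columns. Intervals here and below cover counting error only.

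**Figure D1:**
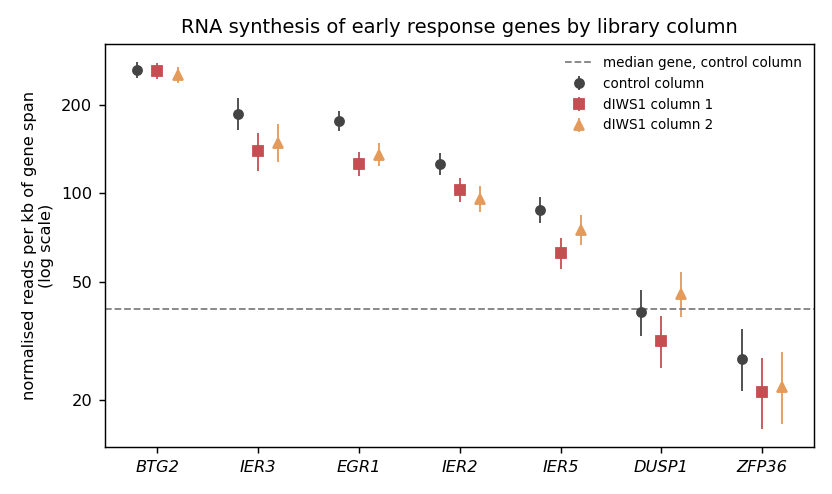
Normalised reads per kb of RefSeq gene span (log scale) of the 7 genes in the control column and both dIWS1 columns, with 95% Poisson intervals for counting error, and the median gene of the control column as a dashed line. *BTG2* is highest in all 3 columns and nearly level between them, *EGR1*, *IER2*, *IER3* and *IER5* are lower in both dIWS1 columns, and *DUSP1* lies on either side of its control value.

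The comparison of dIWS1 with control asks how the loss of IWS1 alters RNA synthesis. Scaled by spike-ins, 4 of the 7 genes fell, *EGR1*, *IER2*, *IER3* and *IER5* (limma voom, Benjamini-Hochberg adjusted p under 0.05 over all genes tested), whereas scaled by total reads in genes 0 fell, also unadjusted, and the median of the 7 turned to 0.10. Under that scaling by total reads 1 rose, *BTG2* (log2 fold change 0.41, adjusted p = 0.0177, limma voom), and the share of all genes that rose was not counted. With spike-ins none rose, also at an unadjusted p under 0.05 (0 genes) and with limma trend (0 genes). Over all 10135 genes tested 64.5% were lower and 0.109% were higher, so that the share of 4 in 7 is no higher than that among all genes. *DUSP1*, *ZFP36* and *BTG2* did not pass the test. The median log2 fold change of the 7 genes was −0.34, beside −0.43 over all genes (quartiles −0.60 and −0.26). In a bulk culture scaled by spike-ins, fewer cells and less RNA per cell cannot be told apart.

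*EGR1* had 680 control reads, against 479 in column 1 and 476 in column 2 of dIWS1. Divided by the size factors these are 674, 482 and 518 normalised reads, and both dIWS1 values lie below the control. The log2 fold change was −0.43 (SE 0.13, adjusted p = 0.00226, limma voom), a fall of synthesis by 25.8%, and it stood at −0.48 in column 1 and −0.38 in column 2. It was the lowest value of the group and the only one of the 7 genes that also passed with limma trend (adjusted p = 0.0225), by which 55.2% of all genes were called lower.

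All 3 IER genes fell. *IER2* had 573, 460 and 397 reads (568, 463 and 432 normalised reads) in the control column, column 1 and column 2, with log2 ratios to the control of −0.29 and −0.39 and a fitted log2 fold change of −0.34 (SE 0.13, adjusted p = 0.0148, limma voom). *IER3* had 253, 186 and 184 reads (251, 187 and 200 normalised reads), with ratios of −0.42 and −0.32 and a log2 fold change of −0.37 (SE 0.15, adjusted p = 0.0229, limma voom). The single-exon gene *IER5* had 374, 262 and 291 reads (370, 264 and 316 normalised reads). Its ratio was −0.49 in column 1 but −0.23 in column 2 (95% exact interval −0.45 to −0.0022), smaller than the fitted −0.36 by more than 1.5 times (SE 0.14, adjusted p = 0.0151, limma voom). For all 3 genes both dIWS1 columns lay below the control. With limma trend their adjusted p rose to 0.0702 (*IER2*), 0.0719 (*IER3*) and 0.0699 (*IER5*), so that these calls depend on the test.

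None of the 3 feedback genes with a row passed the test. *ZFP36* had 71 reads in the control column, 54 in column 1 and 52 in column 2 (70.3, 54.4 and 56.6 normalised reads), with ratios of −0.37 and −0.31. Its log2 fold change of −0.34 is as large as that of *IER2*, but at this depth its interval ran from −0.81 to 0.13 and it did not pass (SE 0.24, adjusted p = 0.19, limma voom). It passed with the control entered as 2 equal columns (adjusted p = 0.01, limma voom), a fit in which no spread between controls enters. In that fit 7883 of all genes tested were called lower, beside 6533 in the main fit. *DUSP1* had 124, 97 and 130 reads (123, 97.7 and 141 normalised reads), so that the control lies between the dIWS1 columns. Its log2 ratio was −0.33 in column 1 and 0.20 in column 2, and the fitted −0.07 has an interval from −0.43 to 0.29 (SE 0.19, adjusted p = 0.731, limma voom), so that its direction rests on which dIWS1 column is used.

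*BTG2*, the most strongly transcribed gene of the group, had 1082 control reads, 1057 reads in column 1 and 948 in column 2. After scaling these are 1072, 1064 and 1031 normalised reads, a difference of −0.01 and −0.06 on the log2 scale. The fitted log2 fold change was −0.03 (95% interval −0.30 to 0.23, SE 0.13, adjusted p = 0.825, limma voom). In total, both dIWS1 columns lay below the control for 6 of the 7 genes, all but *DUSP1*, and both lay above it for none, beside 92.1% and 1.95% of all genes tested.

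**Figure D2:**
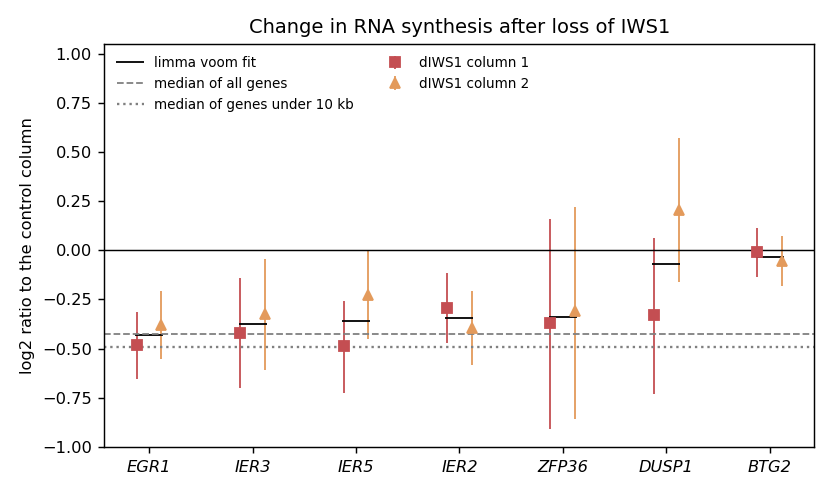
Log2 ratio of each dIWS1 column to the control column for the 7 genes, with 95% exact intervals for counting error, the limma voom fold change as a black dash, and the medians of all genes (−0.43) and of genes under 10 kb (−0.49) as dashed and dotted lines. *EGR1*, *IER3*, *IER5*, *IER2* and *ZFP36* sit near the median of all genes and *BTG2* sits near 0 in both columns.

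Since most genes were lower under the spike-in scaling, each gene was also set against the median gene. *EGR1* stood at −0.01 relative to it (95% interval −0.26 to 0.25), *IER3* at 0.053, *IER5* at 0.065, *IER2* at 0.082 and *ZFP36* at 0.085, none of which passed (adjusted p between 0.745 and 0.986, limma voom on recentred values). *DUSP1* was at 0.35 (interval −0.01 to 0.72, adjusted p = 0.244, limma voom on recentred values). *BTG2* was the 1 gene called, 0.39 above the median gene (interval 0.13 to 0.66, adjusted p = 0.047, limma voom on recentred values), beside 3.01% of all genes called higher and 4.78% called lower. Its distance from the median gene was 0.46 in column 1 and 0.32 in column 2. The call lies close to the threshold: the adjusted p was 0.0512 once genes under 10 reads in any column were left out and 0.168 with limma trend. It was 0.0149 with the control entered as 2 equal columns, where no spread between controls enters, and 0.0204 when scaled by total reads (both limma voom on recentred values). The shares of all genes called higher in these other fits were not counted.

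The short length of the genes was compared with the rest of the table. The 2451 tested genes with a span under 10 kb had a median log2 fold change of −0.49 (quartiles −0.69 and −0.30), and 59.2% of them were called lower, 0.122% were called higher and 87.4% had both dIWS1 columns below the control. All 7 genes lay above this median, most of them by little. Set against it after the data were seen, *EGR1* was at 0.059, *IER3* at 0.12, *IER5* at 0.13, and *IER2* and *ZFP36* at 0.15. None of these passed (adjusted p between 0.504 and 0.819, limma voom on recentred values). *DUSP1*, at 0.42, did not pass either (adjusted p = 0.136), while *BTG2*, at 0.46, did (adjusted p = 0.0138, both limma voom on recentred values). This median is lower than that of all genes (−0.43), so every gene stands higher against it than against the median gene. How many of all genes were called higher against it was not counted. The 1522 short genes whose mean lay within the range of the 7 genes had a median of −0.47. The medians and shares are descriptions, and the 7 genes as a set were not tested against short genes.

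**Figure D3:**
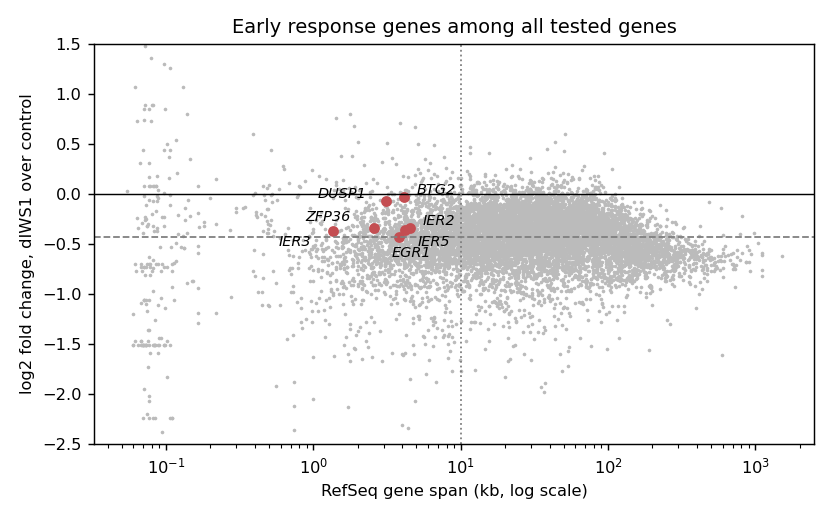
Log2 fold change (dIWS1 over control) of each tested gene with a known length against its RefSeq span in kb (log scale), with the 7 genes in red, the median of all genes dashed and a span of 10 kb dotted; 20 genes lie outside the axis from −2.5 to 1.5. *BTG2* and *DUSP1* lie highest, above the upper quartile of genes under 10 kb (−0.30). *EGR1*, *IER3*, *IER5*, *IER2* and *ZFP36* lie between the median (−0.49) and that quartile.

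Genes around these 7 were counted from fixed lists. Of 9 listed paralogs of the 7 genes 6 have a row, and 0 were called lower or higher, beside 64.5% and 0.109% of all genes (limma voom, also 0 at an unadjusted p under 0.05 and 0 with limma trend). Their median log2 fold change was −0.06. The relatives of *BTG2* with a row are *BTG3* and the TOB genes, antiproliferative proteins that also bind the deadenylase. *BTG3* had 954, 891 and 1027 reads (log2 fold change 0.08, SE 0.13) and *TOB1* 354, 362 and 334 reads (0.05, SE 0.13). Both, of the 6, were called higher than the median gene, beside 3.01% of all genes, by 0.51 (adjusted p = 0.0045, limma voom on recentred values) and 0.48 (adjusted p = 0.00998, limma voom on recentred values). *TOB2* was at −0.18 and the *ZFP36* relative *ZFP36L2* at −0.19, 0.24 and 0.23 relative to the median gene, and neither passed.

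Counts of regulators upstream of the group are set beside the 64.5% of all genes called lower under the spike-in scaling, and the difference from that share was not tested. Of SRF and its cofactors, 6 of 6 have a row and 5 fell, also 5 with limma trend, with a median of −0.52. The myocardin-related coactivators were the lowest (*MRTFB* −0.67 and *MRTFA* −0.62, listed as *MKL2* and *MKL1*), *ELK4* was at −0.39, and *ELK3*, which did not pass, was at −0.15. Of 14 genes of the ERK cascade 12 have a row and 9 fell, 6 with limma trend (median −0.37), among them *MAPK3* (ERK1, −0.61) and *MAP2K2* (−0.61), while *MAP2K1* (−0.27) did not pass. *NAB2*, a corepressor of EGR proteins, fell (−0.54), and *NAB1* was at −0.19 and did not pass. No gene of these 3 lists was called different from the median gene (limma voom on recentred values).

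Partners and counterparts of the feedback genes are likewise read beside 64.5% called lower with limma voom and 55.2% with limma trend over all genes. Of other MAP kinase phosphatases 5 of 8 have a row and 4 fell, also 4 with limma trend (median −0.45), among them *DUSP7* (−0.54), *DUSP4* (−0.47) and *DUSP16* (−0.40), and *DUSP10*, at −0.29, did not pass. Of the CCR4-NOT complex, which the *ZFP36* and *BTG2* products bind, 10 of 11 listed subunits have a row, all but *CNOT1*. Of these 7 fell, 4 with limma trend (median −0.37), including *CNOT10* (−0.58) and *CNOT3* (−0.51), while *CNOT8* (−0.18) and *CNOT6L* (−0.12) did not pass. Of 12 other feedback inhibitors 11 have a row and 4 fell, 2 with limma trend (median −0.27). *NFKBIA*, the inhibitor of NF-κB, fell by 0.55 on the log2 scale and the cytokine signal inhibitor *SOCS2* by 0.42, whereas *SOCS1* and *SPRY1* were at 0.02 and 0.03 and did not pass.

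Of 34 other early response genes 26 have a row, 20 of them under 10 kb. Beside 64.5% of all genes and 59.2% of genes under 10 kb called lower, 9 of the 26 fell (6 with limma trend) and 0 rose at an adjusted p under 0.05 (limma voom, also 0 rises at an unadjusted p under 0.05 but 1 with limma trend, *KLF4*), with a median of −0.24. How many of all genes rose with limma trend was not counted. *PPP1R15A*, which reverses the phosphorylation of eIF2α, fell by 0.53 and the AP-1 gene *JUND* by 0.50 on the log2 scale. *KLF10* had 406 reads in the control column, 411 in column 1 and 460 in column 2 (log2 fold change 0.18, SE 0.13). Relative to the median gene 4 of the 26 were called higher, beside 3.01% of all genes: *KLF10* (0.60), *IFRD1* (0.47) and, named here after their values were seen, *FOS* (0.79) and *KLF4* (1.10). *FOS* had 51, 53 and 74 reads and *KLF4* 22, 29 and 39.

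**Figure D4:**
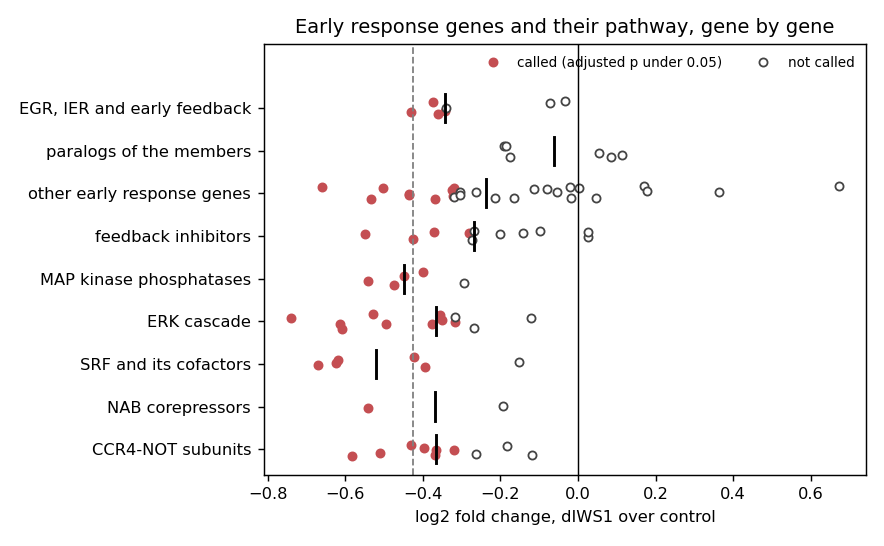
Log2 fold change (dIWS1 over control) of each gene with a row in the 9 lists, 1 point per gene, filled where called at an adjusted p under 0.05, with the median of each list as a black bar and that of all genes as a dashed line. SRF and its cofactors lie lowest with a median of −0.52, and the paralogs of the 7 genes lie highest at −0.06 with no filled point.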

How the data were processed

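TT-seq was performed in genome edited K562 cells. The authors aligned reads with STAR 2.6.0 to GRCh38 with spike-in sequences, kept unique alignments, counted read pairs per RefSeq gene on its strand, removed overlapping genes and genes up to 10 reads per kb, and fitted DESeq2 with spike-in size factors. The deposited table gives per gene the mean normalised count, a signal averaged over 4 library columns, and the authors' comparison: a log2 fold change, its standard error, a statistic and p-values. No value of that comparison is printed. Its log2 fold change, deposited on the log2 scale as dIWS1 over control, served only to narrow the search for the whole reads behind each mean and to tell which columns belong to which group. For the 5640 genes with a mean up to 1200, which include the 7 genes, a full search without it gave the same single solution. Of 300 means shifted at random, 0 could be split. One gene with several solutions and 11 with a mean of 0 were left out.

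Reads were tested with limma 3.58.1 (voom, R 4.3.3) over 10135 genes with library sizes proportional to the size factors (1.01 for the control, 0.993 and 0.919 for dIWS1), and adjusted by Benjamini-Hochberg. The threshold for a call was an adjusted p of 0.05. The lone control is assumed to vary like dIWS1. The fit took one spread for all genes of a given read count, which includes the general shift between the dIWS1 columns (median log2 ratio −0.12 for column 1 over column 2). In data simulated for 10135 genes, 198 of 200 genes changed by 1 on the log2 scale were called, and 6 unchanged genes. The simulation held no general fall and no general shift between the dIWS1 columns, and no changed gene had a mean as low as that of *ZFP36*. A change of 1 is larger than that of any of the 7 genes. The result therefore does not tell how often changes of their size are found or falsely called. Log2 ratios of single columns used a pseudocount of 0.5. Gene lengths were found for 10085 genes in RefSeq (GRCh38.p14), and exons are those of canonical transcripts in GENCODE 44. Python 3.11.15, numpy 2.4.6, pandas 2.3.3, scipy 1.17.1, numba 0.67.0 and matplotlib 3.10.9 were used. The members, lists and tests were chosen with earlier results of these data known. All 7 genes with a row are named. Of each other list the 2 highest and 2 lowest genes with at least 100 control reads are named, others only where stated, and 1 gene the rule names is not reported here. The alternatives were other scalings, tests, filters, thresholds and columns left out.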

Additional observations from a re-analysis of the deposited data

How the results depend on the processing

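The scaling decides the direction. Scaled by total reads in genes, the median of the 7 genes was 0.10 and 0 fell, also at an unadjusted p under 0.05 (limma voom). There 1 rose, *BTG2* (adjusted p = 0.0177, limma voom), and 1080 of all genes fell. How many of all genes rose under this scaling was not counted, so the 1 rise has no share to be read beside. The log2 fold changes were then 0.011 (*EGR1*), 0.10 (*IER2*), 0.070 (*IER3*), 0.084 (*IER5*), 0.38 (*DUSP1*), 0.10 (*ZFP36*) and 0.41 (*BTG2*). Recentred on the median gene, the median was 0.082, 0 fell (0 unadjusted), 1 rose and 484 of all genes fell, with 0.082 for *IER2*, 0.053 for *IER3*, 0.065 for *IER5*, 0.35 for *DUSP1*, 0.085 for *ZFP36* and 0.39 for *BTG2*. In both, most genes are set near 0 by construction. The number of the 7 genes called lower was 1 with limma trend at a pseudocount of 0.5 (4 unadjusted), 1 at a pseudocount of 2, and, where the criterion itself is stricter, 1 at an adjusted p under 0.01 and 0 at a change of at least 0.5, where 3754 of all genes remained called. Without one dIWS1 column the median of the group lay between −0.37 and −0.31. Settings added after the data were seen concern the position relative to the median gene: *BTG2* was no longer called, leaving 0 genes, with at least 10 reads in every column (1 unadjusted) and with limma trend (1 unadjusted), and the cause was not tested. Set against the median of genes under 10 kb, *EGR1* was at 0.059. No paired analysis was possible because the recovered columns carry no replicate numbers and the control is a single column. Depth limits *ZFP36* and *DUSP1* most.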

Other observations

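*DUSP1* differed between the dIWS1 columns more than the other 6 genes. Its log2 ratio of column 1 over column 2 was −0.53 (95% exact interval −0.93 to −0.14 for counting error), while the other 6 ranged from −0.26 (*IER5*) to 0.10 (*IER2*). Over the 8899 genes with a mean over 100 this ratio had a median of −0.12 and an SD over genes of 0.13, and 0.18% of these genes lay at or below *DUSP1*. The gene was singled out after its values were seen, and genes with few reads spread more widely in this ratio.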
